A study of Oryza sativa with 12 samples.

Results

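JAZ proteins are the repressors of jasmonate signalling, and 5 rice genes of this family, JAZ1, JAZ2, JAZ5, JAZ6 and JAZ7, were followed through leaves of wild-type and osnox2 plants under watering and drought. Each gene was found by its symbol or synonym in the rice annotation of assembly ASM3414082v1, and each was read by 1 probe set, so that 5 probe sets of the 32012 tested and 5 genes of 15392 are described. All 5 probe sets passed the filter on dim signals. The genes were chosen by earlier results of these same arrays: JAZ2 by its difference between the genotypes under control conditions (limma, adjusted p = 0.0359), JAZ1 by its drought value in osnox2 (limma, adjusted p = 0.0510), and JAZ7 by its drought value in osnox2 once 3 control arrays were left out (limma, adjusted p = 0.0173). Values from those 2 comparisons are therefore given as a description, and nothing is read from their calls. The same holds for the difference between the drought responses, which can be built from either of them.

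RNA came from the youngest fully expanded leaf of rice plants aged 2.5 months and was hybridised to 12 Affymetrix rice arrays, 3 in each of 4 groups. Wild-type (WT) plants and the T-DNA insertion mutant osnox2, a single mutant line, were sampled on day 0 of the drought treatment, when soil moisture was 47.3 ± 1.9% (control), and on day 15, when it was 8.5 ± 2.1% (drought). OsRbohA, named in the title of the series, is an enzyme of the plasma membrane that makes superoxide outside the cell from NADPH. Plants of both genotypes stood together in a pot, no transgene other than the insertion is named, and drought plants differ from controls in day of harvest as well as in water, so that drought and day cannot be told apart. The leaves are bulk tissue, in which fewer cells of a type and less RNA per cell cannot be told apart either.

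In a leaf without jasmonate, JAZ proteins bind MYC-type transcription factors and, through the adaptor NINJA or directly, recruit co-repressors of the TOPLESS family. When the active hormone, jasmonoyl-isoleucine, accumulates after wounding, insect feeding or some abiotic stresses, the receptor COI1 binds JAZ proteins, which are ubiquitinated and degraded, and the transcription factors are released. Many JAZ genes are themselves switched on by these factors, a negative feedback by which JAZ transcripts rise as JAZ proteins are destroyed. The transcript level measured here therefore does not give the level of the protein.

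The names need care, since rice JAZ numbers are not used uniformly. JAZ1 here is LOC4348533 on chromosome 10, 13721408 to 13722573, which the annotation also calls JAZ12 and TIFY11D. The name JAZ1 is also attached to TIFY3 (LOC4337240), which is counted among the other JAZ genes below. JAZ2 is LOC4342421 (TIFY5) on chromosome 7, 2815984 to 2818681, a name shared with TIFY11C (LOC4331833). JAZ5 is LOC4333065 (TIFY10A, also called JAZ6) on chromosome 3, 16853908 to 16856318, a name shared with TIFY9 (LOC4335698). JAZ6 is LOC4343899 (TIFY10B, also called JAZ7) on chromosome 7, 25573084 to 25575344. JAZ7 is LOC4347164 (TIFY10C, also called JAZ8 and JAZ9) on chromosome 9, 20653311 to 20655246. JAZ5, JAZ6 and JAZ7 thus form the TIFY10 group by name, and JAZ1 belongs to the TIFY11 group. JAZ1 lies 37.8 kb from TIFY11E on chromosome 10, while TIFY11A, TIFY11B and TIFY11C lie together on chromosome 3. The probe sets of JAZ2 and JAZ5 carry a suffix by which Affymetrix marks probe sets that can read more than 1 transcript.

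The arrays were scaled to a common mean, with trimmed means of the linear signal between 497.3 and 497.9, and array medians lay between 5.08 and 5.43 on the log2 scale. Of 6 leaf marker genes 5 were above the median on all 12 arrays, and of 8 genes that mark other tissues 2 were. A set of 3 control arrays stood apart on the first principal component (35.8% of the variance): osnox2 control replicates 1 and 2 and WT control replicate 1. They correlated at 0.932 to 0.954 with each other and at 0.868 to 0.895 with the other 9 arrays. The morning clock gene LHY read 13.51 to 13.79 on them, against 7.31 to 8.26 on the other 3 control arrays and 8.13 to 8.99 on the 6 drought arrays. The evening clock genes PCL1 and PRR1 ran the other way, with PCL1 at 5.59 to 6.16 on the 3 arrays against 14.68 to 14.99 and 14.33 to 14.62. The other clock genes that passed the filter moved less between the 3 arrays and the other control arrays. PRR73 was higher on the 3, by 1.53 and 0.80 in its 2 probe sets, and GI differed by -0.35. The 2 probe sets of PRR37 went opposite ways (-1.56 and 0.49), and PRR95 overlapped (-0.07). Each comparison below is given with and without these 3 arrays; without them osnox2 control is 1 array, whose spread is assumed to be that of the other groups, and WT control is 2.

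JAZ1 was low in osnox2 control leaves and high in osnox2 drought leaves. Its log2 signal was 9.37, 11.62 and 10.52 in WT control, 11.00, 11.67 and 11.18 in WT drought, 8.01, 8.11 and 9.96 in osnox2 control, and 12.81, 11.91 and 11.41 in osnox2 drought, for replicates 1, 2 and 3. The lowest values were those of osnox2 control replicates 1 and 2, followed by WT control replicate 1, the 3 arrays that stood apart. In osnox2 every drought array lay above every control array, whereas in WT the groups overlapped. Group means rose in the order osnox2 control (8.69 ± 1.10, SD, n = 3), WT control (10.50 ± 1.13), WT drought (11.28 ± 0.35) and osnox2 drought (12.04 ± 0.71), and each neighbouring pair in this order overlapped.

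JAZ2 was lower in osnox2 than in WT under both treatments, and within osnox2 it was lower in control than in drought leaves. Its signal was 9.32, 9.34 and 8.82 in WT control, 8.57, 9.72 and 9.79 in WT drought, 6.15, 5.52 and 6.44 in osnox2 control, and 8.29, 7.41 and 6.74 in osnox2 drought. All 6 osnox2 arrays were below all 6 WT arrays. The share of all probe sets separated in this way is not given here. JAZ2 was chosen by its genotype difference in the control arrays, so this separation is a description. The osnox2 control values were close to the array medians. Group means were 6.04 ± 0.47 in osnox2 control, 7.48 ± 0.78 in osnox2 drought, 9.16 ± 0.30 in WT control and 9.36 ± 0.69 in WT drought (SD, n = 3). The osnox2 control arrays lay below the osnox2 drought arrays and these below the WT arrays, all without overlap, while the WT groups overlapped.

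The TIFY10 genes JAZ5, JAZ6 and JAZ7 had their highest mean in osnox2 drought and their lowest in osnox2 control. This was not particular to them. JAZ1 had the same highest and lowest groups, as did TIFY9, TIFY11A, TIFY11B, TIFY11C and TIFY11E, which are named after their values were seen. For JAZ5 the highest and the lowest group each overlapped the next group in the order, and for JAZ6 the lowest did. JAZ5 read 11.96, 12.15 and 12.02 in WT control, 11.53, 11.83 and 11.41 in WT drought, 11.32, 11.20 and 11.65 in osnox2 control, and 13.08, 12.42 and 11.76 in osnox2 drought. Its WT drought arrays were all below its WT control arrays, and its osnox2 drought arrays all above its osnox2 control arrays. JAZ6 varied least, over 1.35 log2 units across the 12 arrays against 4.81 for JAZ1 and 4.27 for JAZ2. It read 12.93, 13.27 and 13.56 in WT control, 13.12, 13.15 and 13.19 in WT drought, 12.77, 12.58 and 13.28 in osnox2 control, and 13.84, 13.79 and 13.93 in osnox2 drought, so that the osnox2 drought arrays lay above the other 9. JAZ7 read 6.84, 10.17 and 9.76 in WT control, 9.61, 8.52 and 8.21 in WT drought, 7.91, 7.13 and 7.37 in osnox2 control, and 10.52, 10.69 and 10.70 in osnox2 drought. Its osnox2 drought arrays again lay above the other 9. The share of all probe sets with such a separation is not given here, so nothing particular to JAZ6 and JAZ7 is read from it. The WT control group of JAZ7 was the most scattered of all, with an SD of 1.82 that came from the low value of replicate 1.

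**Figure D1:**
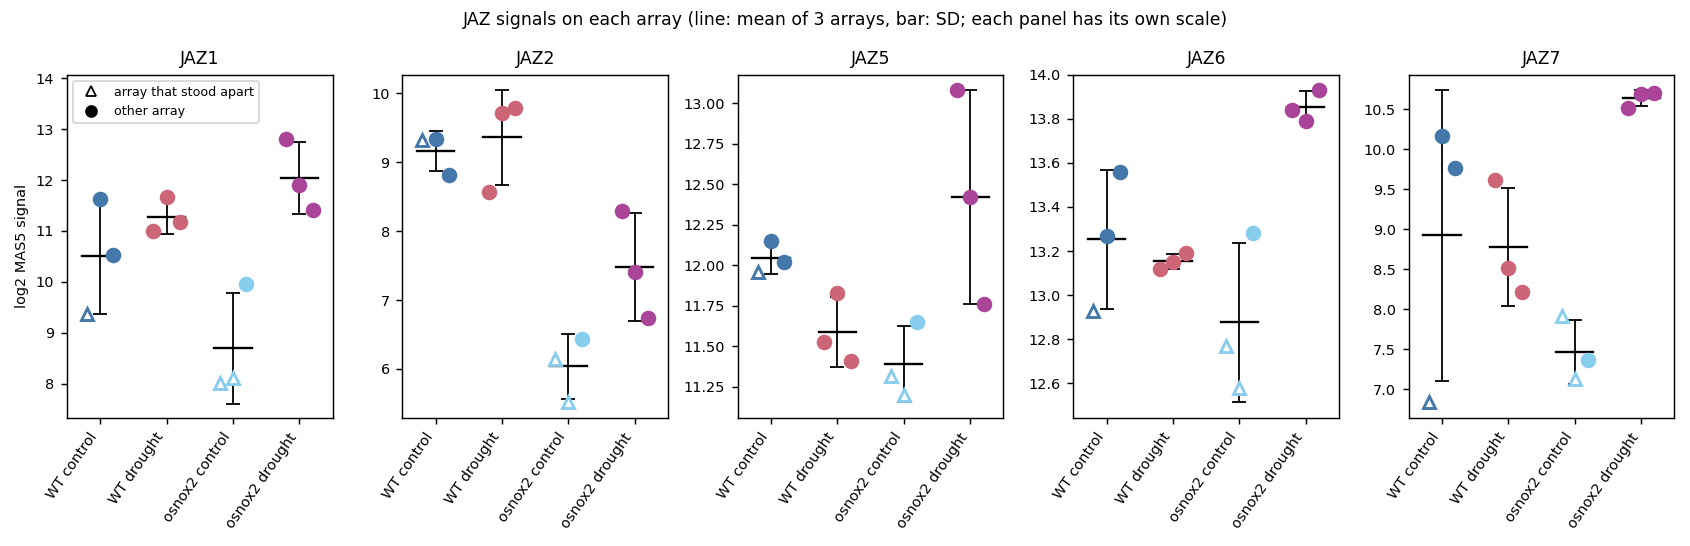
The log2 MAS5 signal of each JAZ gene on each of the 12 arrays, by group, with the mean and SD of 3 arrays; open triangles are the 3 control arrays that stood apart. JAZ6 and JAZ7 have their osnox2 drought arrays above the other 9, and JAZ2 has all osnox2 arrays below all WT arrays. The shares of all probe sets with these separations are not given here.

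In WT leaves drought changed none of the 5 genes past the threshold. The values were 0.78 ± 0.63 (log2, SE) for JAZ1, 0.20 ± 0.44 for JAZ2, -0.45 ± 0.27 for JAZ5, -0.10 ± 0.19 for JAZ6 and -0.15 ± 0.72 for JAZ7. With limma 0 of 5 were called at an adjusted p under 0.05, the lowest being 0.599 for JAZ5, and 0 of 5 had an unadjusted p under 0.05. Of all probe sets 0.131% were called and 10.8% had an unadjusted p under 0.05. JAZ5 was the member whose groups did not overlap, as was so for 18.0% of all probe sets. The median of the 5 was -0.10, against 0.02 for all probe sets.

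Leaving out the 3 arrays moved the WT value of JAZ7 furthest. It went to -1.19 ± 0.36 (limma, adjusted p = 0.119), with the low WT control replicate 1 among the arrays left out, and that of JAZ1 went to 0.21 ± 0.44. In that fit limma called 0 of 5 genes, 2 of 5 had an unadjusted p under 0.05 (JAZ6 and JAZ7, both with negative values). Of all probe sets 2.97% were called and 18.9% had an unadjusted p under 0.05. The comparison shares its WT control arrays with the one that brought JAZ2 forward.

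In osnox2 leaves all 5 values were positive, at 3.35 ± 0.63 for JAZ1, 3.16 ± 0.72 for JAZ7, 1.44 ± 0.44 for JAZ2, 1.03 ± 0.27 for JAZ5 and 0.98 ± 0.19 for JAZ6. The values of JAZ1 and JAZ7 correspond to 10.2-fold and 8.96-fold. In all 5 genes the 3 drought arrays lay above the 3 control arrays, a separation in this direction that 14.5% of all probe sets showed. With limma 0 of 5 were called, where 0.531% of all probe sets were, and 5 of 5 had an unadjusted p under 0.05, where 18.0% of all probe sets had one. Without the 3 arrays the values were 2.09 ± 0.55 for JAZ1, 3.27 ± 0.45 for JAZ7, 1.04 ± 0.62 for JAZ2, 0.77 ± 0.40 for JAZ5 and 0.57 ± 0.12 for JAZ6. JAZ7 was then called, in a fit that called 1.44% of all probe sets, and 3 of 5 genes had an unadjusted p under 0.05, as did 14.7% of all probe sets. That value of JAZ7 rests on 1 osnox2 control array, and with all arrays and a term for the 3 it was 2.17 ± 0.70 and not called (limma, adjusted p = 0.164). As this comparison served to choose JAZ1 and JAZ7, these counts describe the choice.

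**Figure D2:**
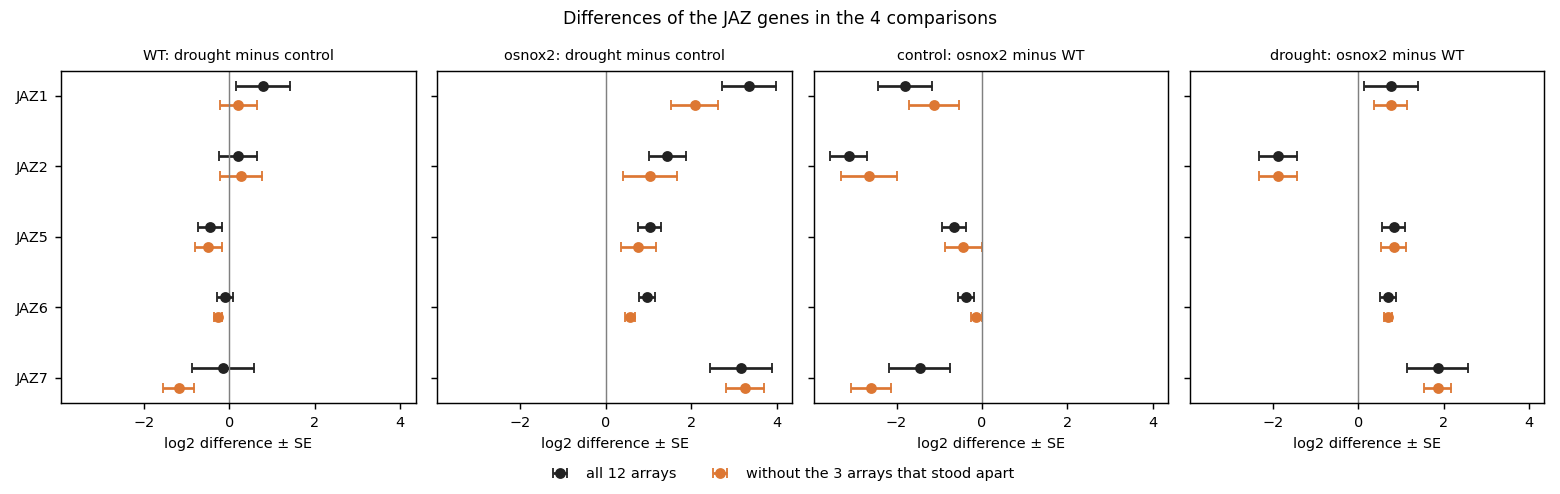
The log2 difference ± SE of each JAZ gene in the 4 comparisons, with all 12 arrays and without the 3 control arrays that stood apart. The osnox2 drought values lie between 0.98 and 3.35 with all arrays, and the WT drought values between -0.45 and 0.78.

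Under control conditions all 5 genes had lower means in osnox2 than in WT. The difference was -3.12 ± 0.44 for JAZ2, 8.71-fold, and this was the 1 call among the 5 with limma, where 0.131% of all probe sets were called. It was -1.81 ± 0.63 for JAZ1, -1.45 ± 0.72 for JAZ7, -0.65 ± 0.27 for JAZ5 and -0.38 ± 0.19 for JAZ6. Leaving out 1 array at a time moved JAZ7 between -2.50 and -0.83 and JAZ1 between -2.44 and -1.25. JAZ7 was called without WT control replicate 1 (limma, adjusted p = 0.0252) and JAZ1 without osnox2 control replicate 3 (limma, adjusted p = 0.0482). In the first fit the WT control arrays left both had low LHY (7.43 and 7.31). In the second the osnox2 control arrays left both had high LHY (13.51 and 13.57). Genotype and clock state are thus harder to tell apart in these fits, and the share of all probe sets they called is not given here. JAZ2 and JAZ5 did not overlap between the genotypes, as held for 8.47% of all probe sets in either direction. Without the 3 arrays JAZ2 stood at -2.64 ± 0.66 and was no longer called (limma, adjusted p = 0.188), none of the 5 was called, and 0.275% of all probe sets were. In that fit 2 of 5 had an unadjusted p under 0.05, as did 10.4% of all probe sets. The call of JAZ2 also depended on single arrays: it was lost when any 1 of 7 of the 12 arrays was left out, with differences of -3.32 to -2.86 over all 12 omissions. With 64 added to the linear signal, which damps dim values, the difference of JAZ2 was -2.28 and remained called (limma, adjusted p = 0.0306). As this comparison served to choose JAZ2, the calls of JAZ2 in it describe the choice and are not support for it.

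Under drought the genotypes differed by 1.86 ± 0.72 for JAZ7, 0.83 ± 0.27 for JAZ5, 0.76 ± 0.63 for JAZ1 and 0.70 ± 0.19 for JAZ6, with osnox2 higher, and by -1.88 ± 0.44 for JAZ2, with osnox2 lower. With limma 0 of 5 were called, the lowest adjusted p being 0.293 for JAZ2, where 0.103% of all probe sets were called. An unadjusted p under 0.05 was found for 4 of 5, and for 5.02% of all probe sets. JAZ2, JAZ6 and JAZ7 did not overlap between the genotypes, as was so for 16.5% of all probe sets. None of the 3 arrays that stood apart is in these groups, and leaving them out changes the spread but not the differences.

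With that smaller spread JAZ6 was called: its difference of 0.70 ± 0.09, 1.62-fold, had an adjusted p of 0.0170 with limma, in a fit that called 0.590% of all probe sets. JAZ7 (limma, adjusted p = 0.0531) and JAZ2 (limma, adjusted p = 0.123) were not called there. JAZ6 was also called when a term for the 3 arrays was added (limma, adjusted p = 0.00867), in a fit that called 178 of 32012 probe sets. When the drought groups alone were fitted it was called too (limma, adjusted p = 0.0171), and the share of all probe sets called there is not given here. With 1 array left out at a time JAZ6 was called in 0 of 12 fits. Over the 22 alternatives its difference stayed between 0.66 and 0.75, with adjusted p between 0.00867 and 0.9999 in limma. This comparison was not one that the genes were chosen by, but it shares its osnox2 drought arrays with the one that brought JAZ1 and JAZ7 forward.

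The drought response in osnox2 minus that in WT was 3.31 ± 1.01 for JAZ7, 2.57 ± 0.89 for JAZ1, 1.48 ± 0.39 for JAZ5, 1.25 ± 0.62 for JAZ2 and 1.07 ± 0.26 for JAZ6. With limma 0 of the 5 were called, each with an adjusted p of 0.986, although 4 had an unadjusted p under 0.05. The fit called 0.0% of all probe sets, that is 0 of 32012, of which 1075, or 3.36%, had an unadjusted p under 0.05. Without the 3 arrays the difference for JAZ7 was 4.46 ± 0.57 (limma, adjusted p = 0.0824), 0 of 5 were called, and 0.025% of all probe sets were. An unadjusted p under 0.05 was then found for 4 of 5, and for 7.31% of all probe sets.

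Between the control arrays of different clock state, 2 of the 5 genes did not overlap, where 42.9% of all probe sets did not, so that this count is near the background. JAZ1 read 8.01 to 9.37 on the 3 arrays with high LHY and 9.96 to 11.62 on the other 3 control arrays, without overlap. JAZ6 likewise read 12.58 to 12.93 against 13.27 to 13.56. JAZ7 (6.84 to 7.91 against 7.37 to 10.17), JAZ5 (11.20 to 11.96 against 11.65 to 12.15) and JAZ2 overlapped between the states.

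Since 2 of the 3 arrays are osnox2 and 1 is WT, the genotypes can be set side by side within each state, with 1 or 2 arrays on each side and no test. JAZ2 was lower in osnox2 in both, by -3.48 on the high-LHY arrays and -2.64 on the others. JAZ1 differed by -1.31 and -1.11, JAZ5 by -0.70 and -0.43, and JAZ6 by -0.25 and -0.13. JAZ7 turned direction, at 0.68 on the high-LHY arrays and -2.60 on the others. The part of the clock state in the control and drought differences of JAZ1, JAZ6 and JAZ7 was not tested.

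**Figure D3:**
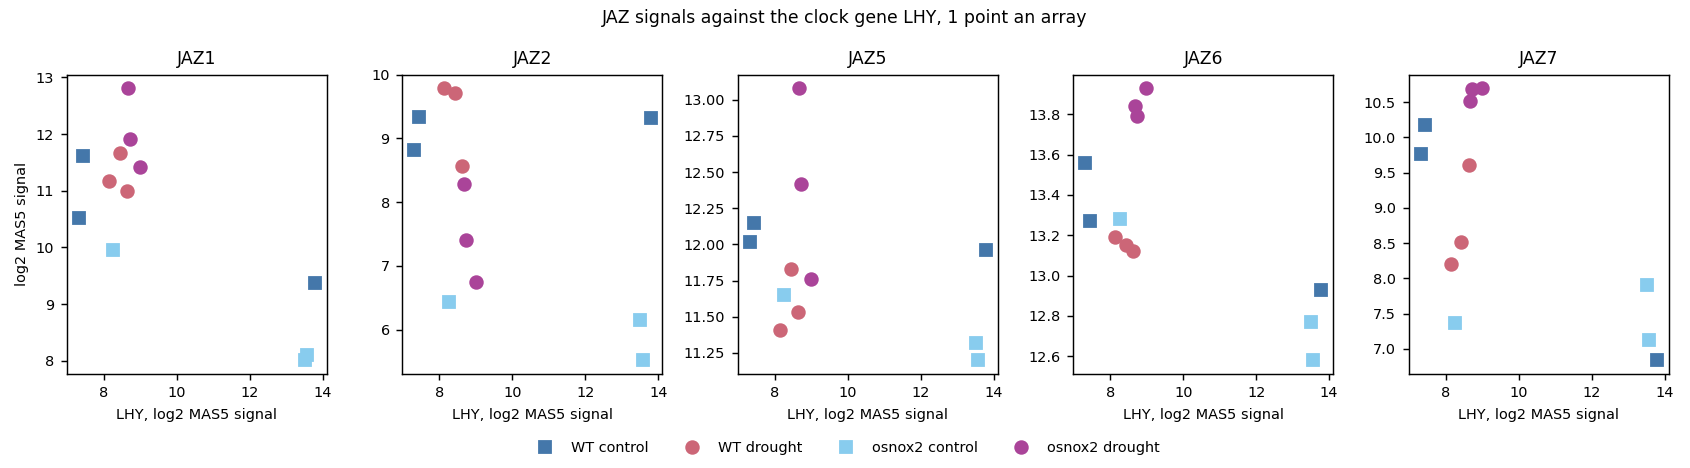
The log2 signal of each JAZ gene against that of the clock gene LHY, 1 point an array. The 3 control arrays with LHY at 13.51 to 13.79 hold the lowest JAZ1 and JAZ6 values, while JAZ2 at similar LHY is high in WT and low in osnox2.

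The other 8 JAZ genes, read by 10 probe sets, gave a background within the family. Here and in the lists below, each gene is counted by its probe set with the highest mean signal among those that passed the filter. With limma 0 of 8 were called in any of the 4 comparisons or in the difference between the drought responses, with all 12 arrays or without the 3. With all arrays their median drought value was -0.20 in WT, with 2 genes above 0 and 6 below, and 1.61 in osnox2, with 5 above and 3 below. The medians of all probe sets were 0.02 and 0.08. Without the 3 arrays the osnox2 median of the 8 genes was 0.57, with 6 above 0 and 2 below. The osnox2 minus WT medians were -1.15 under control, where 6 of 8 were below 0, and 0.64 under drought, where 7 of 8 were above 0.

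TIFY11E, the neighbour of JAZ1, is named after its values were seen. Its signal was 7.77, 10.86 and 9.16 in WT control, 10.07, 10.48 and 8.52 in WT drought, 5.14, 4.19 and 9.17 in osnox2 control, and 12.58, 9.48 and 9.33 in osnox2 drought. Its lowest values were those of the 3 arrays with high LHY. Its drought value in osnox2 was 4.29 ± 1.32 (limma, adjusted p = 0.160) with all arrays and 1.29 ± 1.28 (limma, adjusted p = 0.719) without these 3. TIFY3, which shares the name JAZ1 and acts in spikelet development under the name EG2, had values of -0.25 ± 0.14 in WT (limma, adjusted p = 0.550) and -0.06 ± 0.14 in osnox2 (limma, adjusted p = 0.848), and it too is named after its values were seen.

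**Figure D4:**
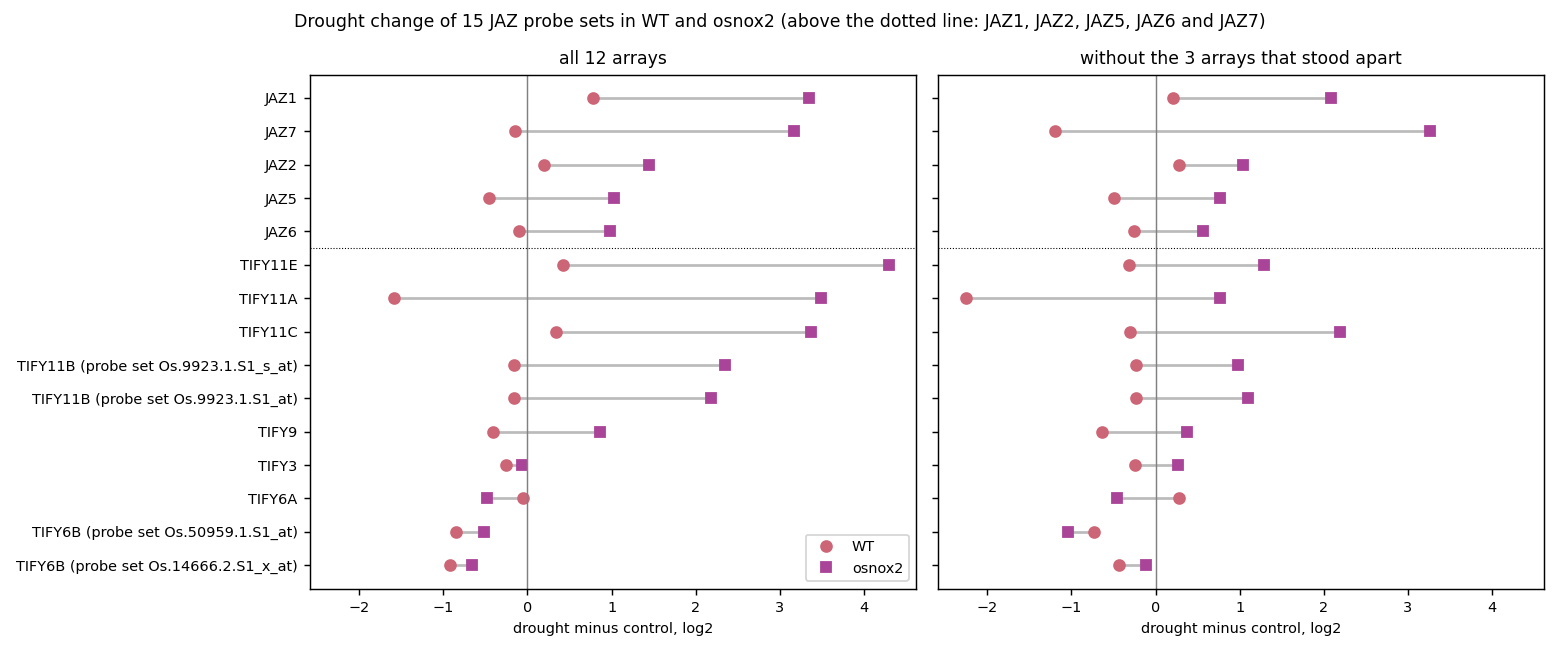
The log2 drought minus control difference of 15 JAZ probe sets in WT and osnox2, with all 12 arrays and without the 3 that stood apart; the genes described are above the dotted line. The osnox2 values of the genes described run from 0.98 to 3.35 in the left panel and from 0.57 to 3.27 in the right one, where they rest on 1 control array.

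Genes of jasmonate synthesis, such as lipoxygenases, allene oxide synthase and cyclase and OPR reductases, were listed by name only. Of the 21 listed, 13 had a probe set that passed the filter. With limma 0 of 13 were called in the 4 comparisons, with or without the 3 arrays. Their median was -0.18 for drought in WT and 0.42 in osnox2 with all arrays, and -0.25 and -0.09 without the 3. Under drought the osnox2 minus WT median was 0.63, with 12 of 13 genes above 0, against 0.00 for all probe sets. Of 9 genes of perception, co-repression and transcription, 7 had a probe set that passed the filter, and 0 of these were called. They are COI receptors, NINJA, TOPLESS relatives and a transcription factor. No gene named MYC was in the list. Their drought medians were 0.01 in WT and 0.17 in osnox2.

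Of 7 genes listed by name for jasmonate turnover, 6 had a probe set that passed the filter. All 7 are ILL genes, and no gene named CYP94 or JMT was in the list. Whether these ILL genes act on jasmonate was not tested. ILL8, named for amidohydrolases that cleave hormone conjugates, was called in 1 setting: without the 3 arrays its drought value in osnox2 was 3.61 ± 0.59 (limma, adjusted p = 0.0297). Its signal was 4.10, 0.56 and 6.12 in osnox2 control and 9.38, 9.64 and 10.16 in osnox2 drought, and that value rests on the single control array at 6.12. Of 4 jasmonate and wound response genes, JAMYB, a MYB factor induced by jasmonate, was called for drought in osnox2 with all arrays at 2.01 ± 0.30 (limma, adjusted p = 0.0237). It read 7.16, 6.78 and 7.54 in osnox2 control and 9.00, 9.64 and 8.85 in osnox2 drought. Without the 3 arrays its value was 1.62 ± 0.40 and was not called (limma, adjusted p = 0.0936). PIR7B, an esterase gene induced by bacterial attack, was higher in osnox2 than in WT under drought, called without the 3 arrays at 2.86 ± 0.35 (limma, adjusted p = 0.0154). Its signal was 9.83, 8.94 and 9.75 in osnox2 drought and 6.32, 7.30 and 6.33 in WT drought. PIR7B was higher in osnox2 under control too, so the difference was not particular to drought. Its control mean was 8.03 (7.67 to 8.55) in osnox2 and 6.29 (5.18 to 7.14) in WT, without overlap. With all arrays the genotype difference of PIR7B was not called under drought or under control. The lists describe the pathway by counts and medians, and nothing particular to them is read from these.

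Likeness of pattern was measured as the mean absolute difference from a member over the 12 arrays, after each probe set was centred on its own mean. The values were not scaled, so a probe set that hardly varies can also lie near, and a small difference need not mean a shared pattern. Only 94 probe sets had a gene symbol other than a locus number, so the nearest of these are a small choice. For JAZ1 they were MHZ4 (0.639), CPK24 (0.660) and NCL1 (0.680), where the median over all single-gene probe sets was 1.186. For JAZ2 they were HIRL1 (0.999), KIN4A (1.070) and GA20OX3 (1.095), little nearer than the median of 1.292. For JAZ5 they were TPR3 (0.335), CPK13 (0.336) and DCD1 (0.338), with a median of 0.474. TPR3 itself varied little, with group means between 11.88 and 12.04. For JAZ6 they were ASA2 (0.187), DBB1 (0.251) and HIRL1 (0.262), with a median of 0.423. For JAZ7 they were MHZ4 (0.820), CPK13 (0.882) and HIRL1 (0.891), with a median of 1.274.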

How the data were processed

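Labelled RNA from 12 leaf samples was hybridised to Affymetrix rice arrays. The deposited values are log2 signals made by the authors with MAS5 (version not given), per the submitters' processing notes; the table shows that they were scaled to a common trimmed mean. They were used without further normalization. The 64 reporter control probe sets were left out of 57258, and a probe set was kept if it exceeded the array median on 3 or more arrays, which held for 32012. Probe sets were matched to genes through RefSeq's annotation and the platform's annotation, and 22436 matched 1 gene.

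The model had 1 mean per group and used every array (limma 3.58.1 under R 4.3.3, lmFit and eBayes, intensity trend on), two-sided, with Benjamini-Hochberg adjustment over the probe sets kept, and a call is an adjusted p under 0.05. Residual SDs had a median of 0.418 log2 units, from 8 degrees of freedom, and precision is limited by how few arrays there are. The labels call the arrays biological replicates without saying which plants they came from, so p-values measure the spread between these arrays. Same-numbered arrays were not treated as pairs: correlations of their deviations from the group means ran from -0.251 to 0.368, and in 0 of the pairs of groups were all 3 over 0.1.

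The members and the gene lists were chosen with earlier results of these data known. Every member is named; list genes are named where called with all arrays or without the 3 that stood apart, and the 3 genes with a symbol nearest in pattern to each member. Alternatives were the filter, an offset, quantile and median scaling, no intensity trend, the groups compared alone, the replicate number as a block, each array left out, and the 3 arrays left out or given a term. The fit was tested on simulated data. Protein and promoter sequences were not used here.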

Additional observations from a re-analysis of the deposited data

Results flagged for a closer look

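For JAZ5 (LOC4333065) the 3 drought arrays were below the 3 control arrays in WT and above them in osnox2, while neither difference was called (limma, -0.45 ± 0.27 with adjusted p = 0.599 and 1.03 ± 0.27 with adjusted p = 0.118). Groups that did not overlap were found for 18.0% of all probe sets in WT, in either direction, and for 14.5% in osnox2, higher under drought. The response in osnox2 minus that in WT was 1.48 ± 0.39 on the log2 scale with limma (adjusted p = 0.986, unadjusted p = 0.00290) and 1.26 ± 0.51 without the 3 arrays that stood apart (limma, adjusted p = 0.639). The difference is built in part from the comparison that the genes were chosen by, so it is a description.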

How the results depend on the processing

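Of 545 recomputed differences of the 5 genes over the 4 comparisons and the difference between the drought responses, 505 kept their direction and side of the threshold, 24 passed it newly, 11 lost it and 5 turned direction. Only JAZ2 under control was called with all arrays, so all 11 losses are of that 1 call, out of its 22 alternatives. Most of the 505 were not called in either fit. For drought in osnox2, 0 genes were called with all arrays, 2 with a filter at the 75th percentile, 1 with an offset of 64, 1 with quantile normalization, 1 with array median centring, 1 with only the 2 groups compared, 1 without the arrays that stood apart and 2 with a term for them. Leaving out 1 array at a time gave 0 to 5 calls there, with 5 without osnox2 control replicate 3, 3 without WT control replicate 1 and 1 without WT control replicate 2. Without osnox2 control replicate 3 the osnox2 control arrays left both had high LHY (13.51 and 13.57), so that drought and clock state cannot be told apart in that fit. The share of all probe sets called is not given beside the counts of this paragraph, so nothing particular to the 5 genes is read from them. For osnox2 against WT under control, 1 gene was called with all arrays, and 0 with no intensity trend, 0 with only the 2 groups compared and 0 without the arrays that stood apart, while leaving out 1 array gave 0 to 2. JAZ2 lost its call without osnox2 control replicate 1 or 2, WT control replicate 2 or 3, WT drought replicate 2 or 3, or osnox2 drought replicate 2. JAZ1 gained one without osnox2 control replicate 3, and JAZ7 without WT control replicate 1, omissions after which genotype and clock state are harder to tell apart. Under drought, 1 gene (JAZ6) was called with only the 2 groups compared, 1 without the arrays that stood apart and 1 with a term for them, and 0 in each of the 12 omissions of 1 array. The values that turned direction were all for drought in WT, where none was called: leaving out 1 array gave JAZ2 -0.01 to 0.59, JAZ6 -0.26 to 0.06 and JAZ7 -1.19 to 0.48. The replicate block, which is not a pairing by the labels, gave 1 call for drought in osnox2 (JAZ6) against 0, and 0 against 1 for the genotypes under control. The cause of these changes was not tested. With quantile normalization 20 of 20 group means stayed within 1 SD. For JAZ2, whose osnox2 control signal was near the array medians, the offset moved the difference under control from -3.12 to -2.28.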
